A study of Mus musculus with 14 samples.

Results

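Levels of 10 abundant cytoskeleton genes were followed in mouse LEPC cells that overexpressed miR-93-5p. The genes were the cytoplasmic actins Actb and Actg1, the alpha-tubulins Tuba1a, Tuba1b and Tuba1c, the beta-tubulin Tubb5, the actin regulators Cfl1 and Pfn1, the myosin light chain Myl6 and the tropomyosin Tpm1. They were selected on their pulldown FPKM in these libraries, as a list of names, and they are 10 of 5246 genes compared in the pulldown and 6 of 8423 compared in RNA-seq. The series compared LEPC cells labelled as overexpressing miR-93-5p, cells overexpressing a mutant of it (called mutant here) and cells labelled scr, which served as control. All came from 1 cell line of strain C57BL/6 at 3 passages, grown in DMEM with FBS and antibiotics. RNA-seq of total RNA and a library of the mRNAs found to interact with the microRNA (the pulldown) were made in all 3 conditions, and H3K4me3, H3K27me3 and H3K9me3 chromatin immunoprecipitation in the miR-93-5p and scr cells. The series text mentions biotin for the miR-93-5p group. The mutated bases, the route of overexpression and the bait of the scr pulldown are not given in the sources used here. Each assay and condition had 1 library, so differences below are between libraries, without a test or a replicate error, and fewer cells of a type cannot be told apart from less RNA per cell.

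Actin monomers assemble into filaments, which cofilin severs and profilin supplies with fresh monomers. Alpha- and beta-tubulin pair into the dimers that build microtubules. Tropomyosin lies along actin filaments, and myosin light chains sit on the motor that pulls them. Actin genes are classical targets of serum response factor, which binds the CArG box. Tubulin mRNAs are known to be degraded when free tubulin dimers accumulate. A microRNA pairs with mRNAs mainly through its seed, the stretch near its 5′ end, and lowers their level or translation. Actb and the tubulins are often used as constant controls for normalization.

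The mature microRNA is shown because it defines the overexpressed molecule, with the seed in capitals (bases 2 to 8 of the RefSeq sequence, GRCm38.p6). Whether the 10 mRNAs hold a match to the seed was not analysed here.
miR-93-5p, chr5:138165574-138165596, minus strand: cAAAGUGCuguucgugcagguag

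Of the 10 genes, 9 had promoters in the RefSeq table, 1 of them (Myl6) with 2 starts. Each promoter was given as 250 bases before and 50 after a start. Actb had no promoter there, so it was not searched. CArG boxes were found in 2 of these 10 promoters of 9 genes, against 1.63% of 32851 promoters of that length, both strands searched. The box of Actg1 began 90 bases before the start, and that of Myl6 began 50 bases before its second start. The motif CCAAT was present in 7 of 10 (37.4% of all promoters) and GGGCGG in 8 of 10 (35.7%), while TATAAA was present in 0 of 10 (13.6%). A match is a description of these letters and not a binding site. The promoters with a CArG box are shown beside that of Tubb5, which has none, with CArG boxes and CCAAT on either strand in capitals (RefSeq, GRCm38.p6).
Actg1 promoter, chr11:120348446-120348745, minus strand: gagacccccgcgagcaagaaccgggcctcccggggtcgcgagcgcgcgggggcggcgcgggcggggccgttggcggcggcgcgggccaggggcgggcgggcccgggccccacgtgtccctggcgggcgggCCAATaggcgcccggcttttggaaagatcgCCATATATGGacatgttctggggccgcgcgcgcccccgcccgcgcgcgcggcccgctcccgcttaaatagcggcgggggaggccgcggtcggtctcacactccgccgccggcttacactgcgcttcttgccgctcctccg
Myl6 promoter at its second start, chr10:128492960-128493259, minus strand: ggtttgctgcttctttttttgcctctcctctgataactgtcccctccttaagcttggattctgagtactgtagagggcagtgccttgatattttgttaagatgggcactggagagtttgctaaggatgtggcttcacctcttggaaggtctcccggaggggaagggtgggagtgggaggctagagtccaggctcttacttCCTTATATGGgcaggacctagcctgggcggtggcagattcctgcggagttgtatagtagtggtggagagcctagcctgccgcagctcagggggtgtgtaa
Tubb5 promoter, chr17:35838252-35838551, minus strand: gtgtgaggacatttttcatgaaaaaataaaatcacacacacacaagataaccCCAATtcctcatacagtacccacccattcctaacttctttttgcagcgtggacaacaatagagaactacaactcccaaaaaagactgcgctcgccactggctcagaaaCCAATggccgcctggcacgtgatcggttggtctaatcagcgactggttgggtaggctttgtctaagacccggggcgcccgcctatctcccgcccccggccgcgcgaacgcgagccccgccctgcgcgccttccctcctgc

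In the pulldown, 9 of the 10 genes stood in miR-93-5p below the deposited bounds of their scr value, and Myl6 alone lay within them. How many of all genes compared lay below such bounds was not counted, and the bounds hold no replicate error. Levels are FPKM, fragments scaled to the length of the assembled model and to the depth of the library, with the bounds that the files give in brackets. Log2 ratios were taken after adding a pseudocount of 1 to each FPKM. At least 2-fold lower than scr were 7 of 10 genes, where 33.5% of the 5246 genes compared were, and 0 of 10 were at least 2-fold higher (11.8%). The median log2 ratio was -1.75 for the 10 genes and -0.48 for all genes. With each library rescaled to a median ratio of 1, it was -1.23 for the 10 genes and -0.01 for all genes. After rescaling, 7 of 10 lay at least 2-fold below scr, and the share of all genes below that limit was not counted. Because the genes were chosen with these values in view, nothing follows from that gap. The genes compared had to be matched in all 3 libraries, and all 10 were.

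**Figure D1:**
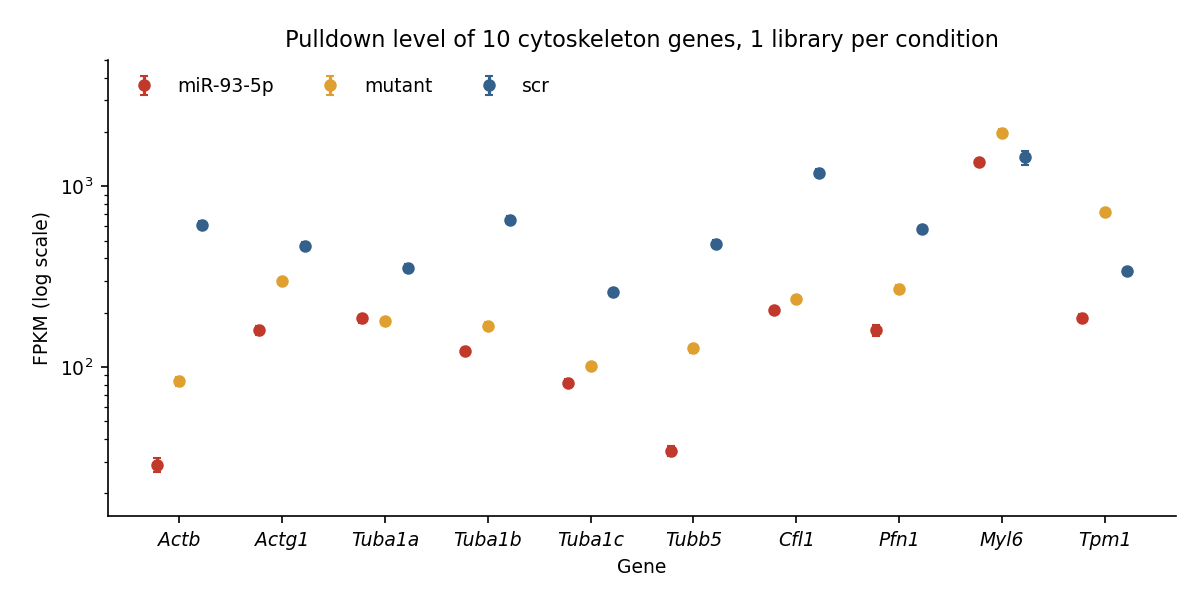
Pulldown FPKM (log axis) of the 10 genes in the miR-93-5p, mutant and scr libraries, with the deposited bounds as bars. The scr points lie highest for every gene but Myl6 and Tpm1, and Actb shows the widest separation, at 28.8, 83.7 and 613 FPKM.

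Actb, which encodes the main cytoplasmic actin, measured 28.8 FPKM (26.2 to 31.4) in miR-93-5p, 83.7 (78.9 to 88.5) in mutant and 613 (586 to 640) in scr. That is a log2 ratio of -4.37 over scr and -1.51 over mutant, the largest fall over scr of the 10, and the bounds of the 3 libraries were disjoint. Among the 5246 genes Actb ranked 1617 in miR-93-5p, 1103 in mutant and 181 in scr. Its assembled locus was nearly the same length in all 3 libraries, 3607, 3603 and 3662 bp, so that the span of the locus did not move with its level. Actg1, the second cytoplasmic actin, had a level of 160 FPKM (151 to 168) in miR-93-5p, 300 (288 to 311) in mutant and 470 (449 to 491) in scr. Both actins followed the same order of libraries, but Actg1 fell by 1.55 on the log2 scale over scr. The level of Actb was therefore below that of Actg1 in the miR-93-5p and mutant libraries and above it in scr.

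Cfl1 encodes cofilin 1, which severs actin filaments. It measured 208 FPKM (200 to 216) in miR-93-5p, 237 (229 to 245) in mutant and 1190 (1135 to 1244) in scr. The miR-93-5p and mutant values lay close together, with a log2 ratio of -0.19 between them, and they lay 5.72-fold and 5.02-fold below scr. Pfn1 encodes profilin 1, which binds actin monomers and promotes their addition to filaments, and it was at 160 FPKM (149 to 171), 271 (256 to 286) and 578 (551 to 605) in miR-93-5p, mutant and scr. Its 3 values were separate, but its locus spanned 2757 and 2722 bp in miR-93-5p and mutant and 4451 bp in scr, so level and span moved together for this gene.

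Among the tubulins, Tubb5 separated all 3 libraries, whereas the alpha-tubulins mainly separated scr from the rest. Tubb5 had a level of 34.5 FPKM (32.4 to 36.6) in miR-93-5p, 127 (120 to 133) in mutant and 481 (460 to 503) in scr. Its log2 ratios were -3.76 over scr and -1.85 over mutant, and its locus spanned 4277, 3394 and 4106 bp. Tuba1b measured 123 FPKM (118 to 128) in miR-93-5p, 169 (161 to 178) in mutant and 652 (623 to 682) in scr. Tuba1c was at 81.7 (77.5 to 86.0), 101 (96.9 to 105) and 259 (253 to 265) in the same order, and both stayed within 2-fold of mutant. Tuba1a had overlapping bounds in miR-93-5p and mutant, at 186 FPKM (176 to 195) and 179 (171 to 186), against 354 (338 to 371) in scr. Its log2 ratio over scr of -0.93 left it just short of the 2-fold limit. The 3 alpha-tubulin proteins are nearly identical, and how the authors assigned reads shared between such genes is not given in the sources used here.

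Myl6 encodes the essential light chain of non-muscle and smooth muscle myosin II. It was the most abundant of the 10 in each pulldown library, at 1357 FPKM (1303 to 1410) in miR-93-5p, 1979 (1892 to 2067) in mutant and 1447 (1318 to 1575) in scr. Its rank was 68, 68 and 81, and its log2 ratio over scr was -0.09, the smallest of the 10. Tpm1, which encodes a tropomyosin, had its highest level in mutant, with 188 FPKM (180 to 197) in miR-93-5p, 721 (700 to 741) in mutant and 342 (330 to 355) in scr. The loci of both genes differed by less than 2% in span between libraries. The miR-93-5p level of Tpm1 was 3.83-fold below mutant and 1.82-fold below scr, and its order of libraries differed from that of the actins and of Tubb5.

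Set against mutant, miR-93-5p had a level at least 2-fold lower for 3 of 10 genes (Actb, Tubb5 and Tpm1), where 26.5% of all genes were. Actb and Tubb5 were at least 2-fold below both other libraries, 2 of 10 genes against 11.9% of all. The mutant itself was at least 2-fold below scr for 6 of 10 genes (22.9% of all) and above it for 1, Tpm1 (21.8%). The median log2 ratio of mutant over scr was -1.22 for the 10 genes and -0.06 for all genes. The comparisons over scr share the scr library, so their values are given side by side and their likeness is no separate result.

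The order of levels within a library also differed. In miR-93-5p the order was Myl6, Cfl1, then Tpm1 and Tuba1a with overlapping bounds, then Actg1 and Pfn1, both at 160 FPKM, then Tuba1b, Tuba1c, Tubb5 and Actb. In mutant it was Myl6, Tpm1, Actg1, Pfn1, Cfl1, then Tuba1a and Tuba1b with overlapping bounds, then Tubb5, Tuba1c and Actb. In scr the order was Myl6, Cfl1, then Tuba1b, Actb and Pfn1, whose neighbouring bounds overlapped, then Tubb5 and Actg1, which overlapped, then Tuba1a and Tpm1, which overlapped, and last Tuba1c. Actb was the lowest of the 10 in miR-93-5p and mutant and the fourth highest in scr.

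The spans of the assembled loci were compared with these levels, since FPKM divides by the length of a model built in each library alone. For 7 of the 10 genes the longest of the 3 pulldown loci was less than 10% longer than the shortest. Among these 7, 4 (Actb, Tuba1b, Tuba1c and Cfl1) were at least 2-fold below scr, against 32.5% of the 3820 genes with loci as alike. The other 3 genes were Actg1 at 10.3%, Tubb5 at 26.0% and Pfn1 at 63.5%. Over all assembled loci, the median span was 2124 bp in the miR-93-5p pulldown, 9097 bp in mutant and 9180 bp in scr, so the miR-93-5p library held many short loci, while the loci of these 10 genes were mostly of full length in it. Spans count introns and are not model lengths, which the files used here do not give.

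**Figure D2:**
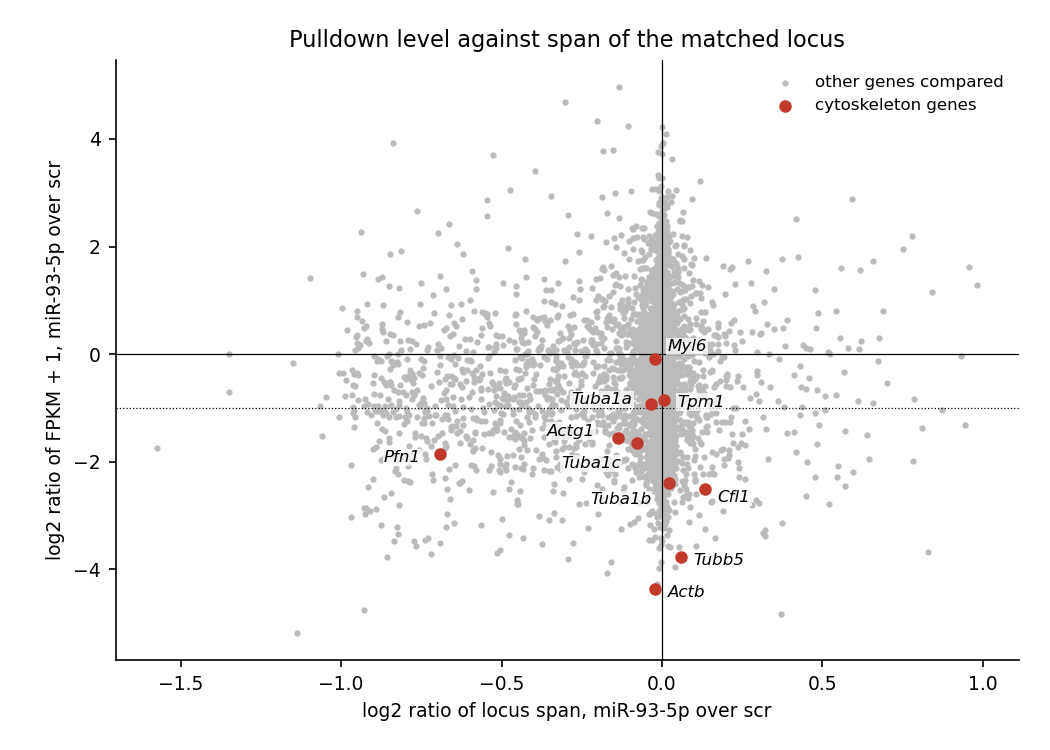
Log2 ratio of pulldown FPKM plus 1 against log2 ratio of locus span, miR-93-5p over scr, for 5246 genes (grey) and the 10 cytoskeleton genes (red), with the 2-fold limit dotted. Of the 10 genes only Pfn1 lies far from equal span, at 61.9% of its scr span.

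Genes abundant in RNA-seq tended to be lower in the miR-93-5p pulldown as a class. Of 587 genes at 100 FPKM or more in RNA-seq and compared in the pulldown, 55.7% were at least 2-fold below scr, with a median log2 ratio of -1.20. The 6 cytoskeleton genes among them, Actb, Tubb5, Cfl1, Pfn1, Myl6 and Tpm1, had a median of -2.18, with 4 of them past that limit. Of the same 587 genes, 24.7% were at least 2-fold below both scr and mutant, against 2 of the 6.

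Compared in all 3 RNA-seq libraries were 6 of the 10 genes, and 1 of 6, Pfn1, was at least 2-fold below scr in miR-93-5p (3.86% of 8423 genes), with 0 of 6 above it (2.97%). Over mutant, 0 of 6 were lower (1.77%) and 0 of 6 higher (1.85%). The median log2 ratio over scr was 0.15 for the 6 genes and 0.03 for all genes. All 6 ranked between 43 and 176 of 8423 in each library, so they were among the most abundant mRNAs throughout.

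**Figure D3:**
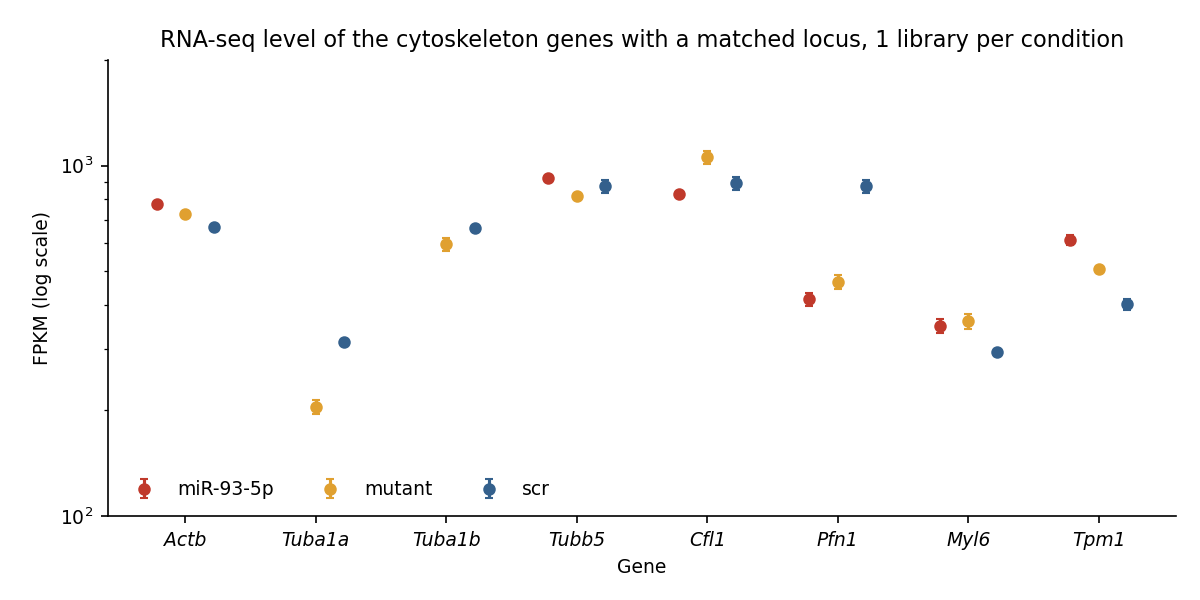
RNA-seq FPKM (log axis) of the 8 genes with a matched locus in at least 1 library, for miR-93-5p, mutant and scr, with the deposited bounds as bars. Pfn1 shows the widest separation, at 415, 465 and 872 FPKM, Tpm1 stands at 612 in miR-93-5p, 506 in mutant and 402 in scr, and Tuba1a and Tuba1b have no separate miR-93-5p locus.

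Actb (mm9 chromosome 5, 143664793 to 143668433) had a level of 778 FPKM (770 to 786) in miR-93-5p, 729 (723 to 736) in mutant and 668 (660 to 675) in scr. It was thus highest in the condition where its pulldown level was lowest, at 1.17-fold of scr. Tubb5 (chromosome 17, 35970870 to 35975251) was at 923 FPKM (914 to 933), 821 (814 to 828) and 873 (835 to 910) in miR-93-5p, mutant and scr. Its log2 ratio over scr was 0.08, against -3.76 in the pulldown. Cfl1 (chromosome 19, 5490484 to 5494029) measured 831 FPKM (821 to 841) in miR-93-5p, 1056 (1011 to 1101) in mutant and 892 (854 to 930) in scr. Neither of these 2 genes passed the 2-fold limit in either contrast.

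Pfn1 (chromosome 11, 70465351 to 70468146) had a level of 415 FPKM (397 to 433) in miR-93-5p, 465 (445 to 486) in mutant and 872 (833 to 911) in scr, a log2 ratio of -1.07 over scr. The locus of Pfn1 spanned 3611 and 3584 bp in miR-93-5p and mutant and 2645 bp in scr, so the lower FPKM went with the longer locus here, the opposite of the pulldown. Whether the length of the locus accounts for the difference was not tested. Myl6 (chromosome 10, 127927915 to 127930931) was at 349 FPKM (332 to 366), 359 (342 to 377) and 293 (286 to 300), with a log2 ratio of 0.25 over scr. Tpm1 (chromosome 9, 66870396 to 66897213) measured 612 FPKM (593 to 632) in miR-93-5p, 506 (494 to 518) in mutant and 402 (388 to 415) in scr. Its 1.52-fold higher value than in scr was the largest rise of the 6, with disjoint bounds and loci within 2% in span. In the pulldown its miR-93-5p level lay below scr and below mutant instead, while mutant lay above scr in both assays.

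The remaining 4 genes could not be compared in RNA-seq. Tuba1b (chromosome 15, 98761855 to 98764996) and Tuba1a (98780271 to 98783982) lie 15275 bp apart, and in the miR-93-5p library a single assembled locus of 22389 bp covered both at 1018 FPKM (985 to 1051). In the other libraries they had a locus each, Tuba1a at 205 FPKM in mutant and 314 in scr, and Tuba1b at 597 in mutant and 662 in scr. The sums were 801 FPKM in mutant and 976 in scr, both below the joint value in miR-93-5p, although a sum of loci and a single locus are not divided by the same length. No assembled locus overlapped Tuba1c (98860321 to 98868536) in mutant or scr in the tables used here, which may not hold every assembled locus, and in miR-93-5p a fragment of 834 bp stood at 1.07 FPKM (0.605 to 1.54). Its pulldown level was 81.7 to 259 FPKM over nearly the whole gene. Of 768 genes at 50 FPKM or more in all 3 pulldown libraries, Tuba1c was the 1 gene without an RNA-seq locus over it in mutant and scr in those tables.

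Actg1 has no row in the mm9 gene loci used here. In RefSeq order it lies between Bahcc1 and Fscn2, and the mm9 interval between those neighbours held 1 abundant RNA-seq locus per library. That locus spanned 2825, 2822 and 2824 bp and had a level of 613 FPKM (606 to 620) in miR-93-5p, 594 (588 to 600) in mutant and 501 (495 to 507) in scr, while no other locus of the interval exceeded 2.71 FPKM. Its length is close to the 2802, 2794 and 3083 bp of the pulldown loci of Actg1. No name links it to Actg1, so it was left out of the counts.

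The deposited intervals of these genes carry a pattern of their own. If an interval reflected counting error alone, its half-width as a percent of the FPKM would shrink as the level rose, and a half-width of 1%, 4% or 5% would stand for 40000, 2500 or 1600 fragments (called implied fragments here). For many abundant loci it did not shrink. In RNA-seq, Tubb5 had half-widths of 1.01% in miR-93-5p, 0.84% in mutant and 4.30% in scr at levels of 923, 821 and 873 FPKM. Those stand for 38937, 56203 and 2159 implied fragments, an 18.0-fold gap between miR-93-5p and scr where the FPKM ratio was 1.06. Cfl1 gave 27026, 2229 and 2246 implied fragments in the same order at 831, 1056 and 892 FPKM. Actb stayed near 1% in all 3 RNA-seq libraries, with 38586, 51506 and 32913.

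In the pulldown, 7 of the 10 genes in scr (Actb, Actg1, Tuba1a, Tuba1b, Tubb5, Cfl1 and Pfn1) had half-widths from 4% to 5%. Their FPKM differed by up to 3.36-fold, from 354 to 1190, and their implied fragments by no more than 1.14-fold, from 1791 to 2034. Over all libraries 10 of 22 RNA-seq values and 12 of 30 pulldown values of the genes lay in that band. Of all loci at 400 FPKM or more, 27.4% to 34.3% per RNA-seq library and 28.0% to 43.4% per pulldown library lay there too, so the band is not particular to these genes. Values of the 10 genes were taken at all levels, unlike those loci. What sets it was not tested.

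**Figure D4:**
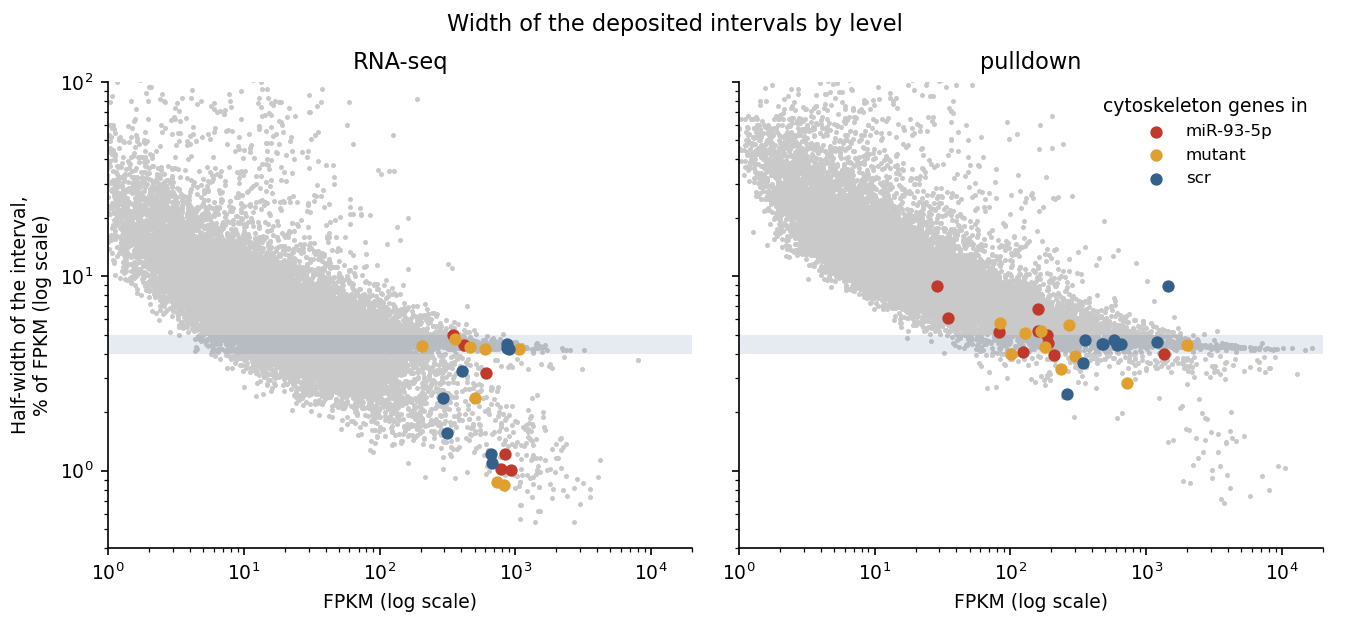
Half-width of the deposited interval as a percent of FPKM (log axis) against FPKM (log axis) in RNA-seq and pulldown, for all genes compared (grey) and the cytoskeleton genes in miR-93-5p (red), mutant (yellow) and scr (blue). The shaded band from 4% to 5% holds 10 of 22 RNA-seq and 12 of 30 pulldown values of the cytoskeleton genes, across levels from 123 to 1979 FPKM.

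A comparison by implied fragments therefore gave other values than FPKM for these genes. After scaling to a median ratio of 1, the median log2 ratio of the 10 pulldown genes over scr was 0.06, against -1.75 by FPKM. By this measure 2 of 10 were at least 2-fold lower (22.6% of 4952 genes) and 2 of 10 higher (20.6%). Actb was at -1.37, with 504, 1195 and 2034 implied fragments in miR-93-5p, mutant and scr, and Tuba1c at -1.49. The scr values of 7 of the 10 genes, Actb included, lay in the 4% to 5% band, where implied fragments did not follow level. For those genes the ratios over scr by implied fragments are therefore no second measure of level. Cfl1 was at 1.05 and Myl6 at 2.92. The scr interval of Myl6 had a half-width of 8.87%, the widest of its 3 intervals. Tubb5 was at -0.23 by implied fragments, against -3.76 by FPKM.

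H3K4me3, a mark of active promoters, overlapped each of the 9 genes with an mm9 locus in both libraries, where 56.6% of 18477 protein-coding genes in miR-93-5p and 56.3% in scr had a peak. The peak lay over the 5′ end of each of the 8 genes whose strand was known from RefSeq, and covered Actb entirely. All these peaks carried the authors' score of 3100, as did 55.3% of the H3K4me3 peaks in miR-93-5p and 60.3% in scr, so the score does not rank them. Their widths did differ between genes.

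Peaks of 5000 bp or more lay over 6 of 9 genes in each library, Actb, Tuba1c, Tubb5, Cfl1, Pfn1 and Tpm1. That width was reached over 4.43% of protein-coding genes in miR-93-5p and 3.64% in scr, and over 20.1% and 15.5% of the 646 genes at 100 FPKM or more in RNA-seq. Tpm1 had the widest peak, of 11620 bp in miR-93-5p and 11307 bp in scr, wider than or equal to 99.9% of the peaks in each library. The peak over Actb was 8471 bp wide in miR-93-5p and 7526 bp in scr. Tuba1c, with nearly no RNA-seq locus, had a peak of 5999 bp in miR-93-5p and 6014 bp in scr over its 5′ end. Tuba1a and Tuba1b had ordinary widths, 2459 and 3273 bp in miR-93-5p and 2392 and 3078 bp in scr, beside library medians of 2274 bp in miR-93-5p and 2377 bp in scr. The peak over Pfn1 also covered parts of Eno3 and Rnf167, that over Cfl1 part of Mus81, and that over Myl6 part of Myl6b.

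The peak was wider in miR-93-5p than in scr for 8 of 9 genes, where 61.0% of 8319 protein-coding genes with 1 peak in each library were. The largest gaps were 1102 bp at Pfn1 and 945 bp at Actb, and Tuba1c was 15 bp narrower. The median over genes of the width in miR-93-5p as a percent of that in scr was 104% for the 9 genes and 103% for the 8319 genes. Peaks were called per library, and width depends on depth as well as on the mark.

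**Figure D5:**
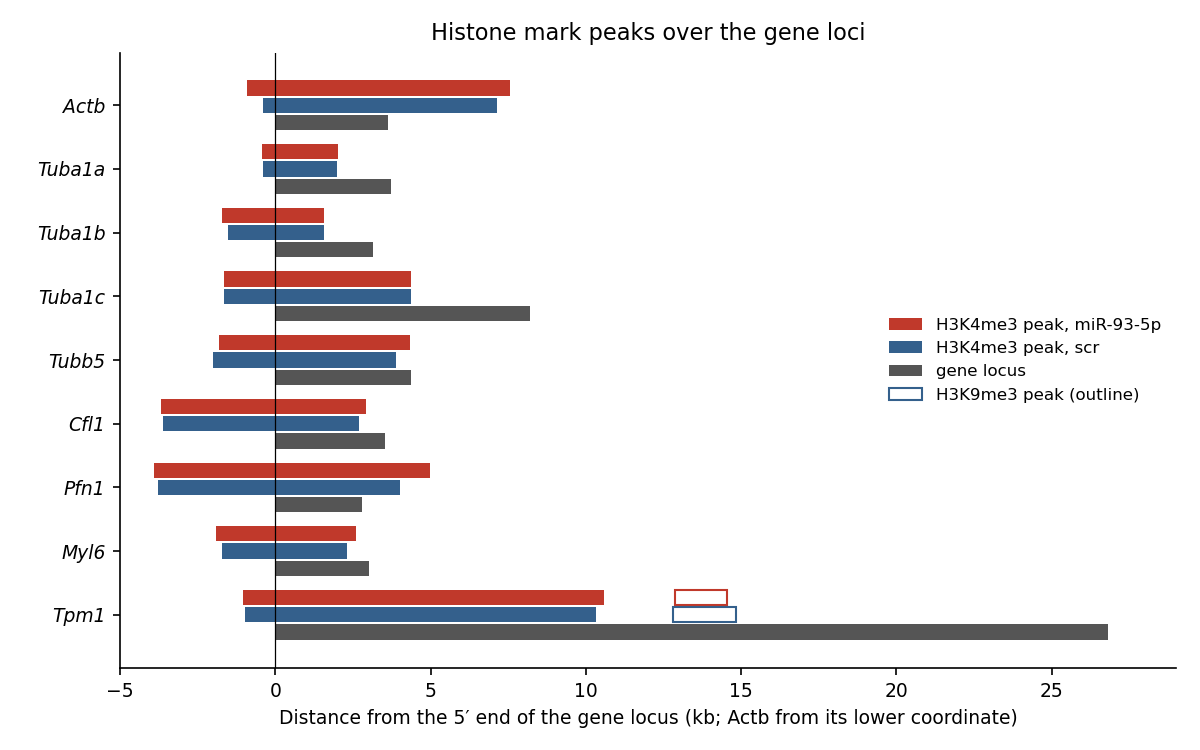
Extent of H3K4me3 peaks in miR-93-5p (red) and scr (blue) and of the gene locus (grey), in kb from the 5′ end of each gene, with the H3K9me3 peaks of Tpm1 outlined. Distances of Actb run from its lower coordinate, and the other 8 genes have their peak over the 5′ end in both libraries. The peak of Tpm1 reaches over 10 kb into the gene.

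The marks of repressed chromatin, H3K27me3 and H3K9me3, were counted in the same way. H3K27me3 overlapped 0 of 9 genes in both libraries, against 19.0% of protein-coding genes in miR-93-5p and 20.4% in scr. H3K9me3 overlapped 1 of 9, Tpm1, in each library, against 20.2% in miR-93-5p and 15.4% in scr. Over 9 genes, counts of 0 and 1 lie near these shares. The H3K9me3 peak of Tpm1 lay inside the gene, 12862 bp from the 5′ end in miR-93-5p and 12795 bp in scr, and was 1680 bp and 2025 bp wide. The H3K4me3 and H3K9me3 peaks of Tpm1 did not overlap.

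Other genes of the actin and tubulin systems were read from lists chosen with earlier results of these data known, against the same shares of all genes, 33.5% at least 2-fold lower and 11.8% at least 2-fold higher in the pulldown. There, 6 of 6 further tubulins compared were at least 2-fold below scr in miR-93-5p, with a median of -1.61 against -0.48 for all genes. Tubb4b, a beta-tubulin, was at 71.4, 189 and 285 FPKM in miR-93-5p, mutant and scr, with loci of 2464, 2491 and 1432 bp, so against scr its level was lower and its span longer. Tubg1, the gamma-tubulin of microtubule nucleation, was at 13.5, 17.3 and 65.9 FPKM, with loci of 6262, 6347 and 6331 bp. Of the myosin II and tropomyosin list 6 of 8 were at least 2-fold lower (median -1.93), with Tagln2, an actin-binding protein, at 20.9, 30.1 and 260 FPKM. Of the Arp2/3 and capping list, which nucleates branches and caps filament ends, 5 of 9 were lower (median -1.28), with Arpc4 at 15.2, 25.6 and 126 FPKM. Crosslinkers and adhesion plaque genes counted 4 of 6 lower (median -1.26), microtubule binding genes and motors 3 of 6 (-1.22), and monomer binding genes 3 of 8 (-0.34). Regulators of serum response factor counted 1 of 4 (-0.52), with Srf itself at 3.71, 2.36 and 5.82 FPKM. The counts of the monomer binding and serum response factor lists lie near the share of all genes. Those of the Arp2/3, crosslinker and microtubule lists lie near the 55.7% of genes at 100 FPKM or more in RNA-seq. The median of those abundant genes was -1.20, and the lists were not limited to that level. In these 7 lists 0 genes were at least 2-fold higher than scr in miR-93-5p. That limit was passed by 11.8% of all genes and by 8.01% of the genes at 100 FPKM or more in RNA-seq.

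Of the list of genes that fold actin and tubulin, 15 were compared in the pulldown. At least 2-fold below scr were 4 of them (33.5% of all genes) and at least 2-fold above it 4 (11.8%), with a median of -0.41 against -0.48 for all genes. Tbca, a tubulin chaperone, was at 2589 FPKM in miR-93-5p and 3395 in mutant against 491 in scr, with loci within 1% in span. Cct5, a subunit of the chaperonin that folds actin and tubulin, was at 73.7, 189 and 361 FPKM in miR-93-5p, mutant and scr.

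In RNA-seq, 3 of the 88 genes of these 8 lists that were compared were at least 2-fold below scr in miR-93-5p and 0 above, against 3.86% and 2.97% of all genes, so the count below lies near that of all genes. The 3 genes were Tmsb4x, Vasp and Pfn2. Tmsb4x, which encodes the monomer-sequestering thymosin beta 4, was at 110 FPKM in miR-93-5p against 383 in mutant and 383 in scr. Vasp, which promotes filament elongation, was at 39.5, 51.1 and 139 FPKM, and Pfn2 at 2.21, 1.73 and 6.38. Rhoa, the GTPase upstream of stress fibres, was at 184, 113 and 97.4 FPKM in miR-93-5p, mutant and scr, short of 2-fold.

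Markers of muscle, leukocytes, endothelium, hepatocytes and simple epithelium were read beside these values. Which of them the LEPC cells express themselves was not tested. Smooth muscle and myofibroblast markers had a matched locus for 0 of 6 genes in every library of both assays, Acta2 and Actg2 included, and endothelial markers for 0 of 5. A gene without a matched locus is not shown to be absent. Krt19, for instance, was unmatched in scr RNA-seq and at 449 FPKM in the scr pulldown. Of the striated muscle markers 0 of 6 were matched in RNA-seq, and Mylpf was at 9.55, 34.5 and 5.87 FPKM in the pulldown, where the list summed to 9.55, 36.7 and 5.87. Leukocyte markers summed to 2.38, 1.82 and 11.4 FPKM in RNA-seq and to 0, 0.852 and 7.71 in the pulldown in miR-93-5p, mutant and scr, with Ptprc, Coro1a and Tyrobp unmatched in both assays. Hepatocyte markers summed to 14.3, 39.3 and 64.3 FPKM in RNA-seq. Most of that came from Hnf4a, at 7.22, 27.4 and 40.6, and Cebpa, at 5.17, 3.00 and 15.3. Alb was unmatched in miR-93-5p and at 1.08 and 1.30 in mutant and scr. In the pulldown the hepatocyte markers summed to 2.32, 131 and 10.4 FPKM over 1, 7 and 4 matched genes. In mutant Ttr was at 68.3 and Fgb at 37.0. The matched genes of the leukocyte and hepatocyte lists differed between libraries, so their sums are not comparable across all libraries. Simple epithelium markers had a matched locus for 4 of 6 genes in each RNA-seq library and summed to 850, 1062 and 996 FPKM there. The 4 genes were not the same, with Krt19 in the miR-93-5p and mutant sums and Epcam in its place in scr. The scr sum is therefore not comparable with the others. The keratins were abundant, Krt8 at 230, 283 and 658 FPKM, Krt18 at 200, 253 and 306, and Krt19 at 418 and 522 in miR-93-5p and mutant, unmatched in scr. Cdh1 was low, at 1.52, 3.87 and 30.7 FPKM, a log2 ratio of -3.65 over scr. Epcam was matched in RNA-seq in scr alone, at 0.840 FPKM, and Cldn7 in no library of either assay. In the pulldown Krt8 was at 86.2, 492 and 590 FPKM and Krt19 at 52.6, 380 and 449. The list summed there to 327, 1477 and 1970 over 3, 5 and 3 matched genes. The part of these marker levels in the cytoskeleton values was not tested.

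The 5 genes whose RNA-seq and pulldown ratios over scr lay nearest the median of the 6 fully matched cytoskeleton genes, among 4506 genes in 4 log2 ratios, were Babam1, Ube2d3, Lgals3, Lrwd1 and Pmf1. Their distances from that median (0.15 and 0.19 in RNA-seq, -2.18 and -1.50 in the pulldown, for miR-93-5p and mutant over scr) were 0.09 to 0.21. Lgals3, which encodes galectin 3, was at 878, 889 and 736 FPKM in RNA-seq and at 153, 285 and 753 in the pulldown for miR-93-5p, mutant and scr. Ube2d3, a ubiquitin-conjugating enzyme gene, was at 196, 216 and 172 FPKM in RNA-seq and at 45.0, 71.6 and 196 in the pulldown. Neither gene encodes a cytoskeleton subunit.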

How the data were processed

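The deposited tables give FPKM with confidence bounds for each locus assembled in a library, per the file headers. The peak lists hold a score per peak from 50 upward, as deposited by the authors, who called peaks per library. TopHat2, Cufflinks, Cuffdiff, CASAVA 1.4, Bowtie, MACS and mm9 are named in the submitters' processing notes, without settings. The 6 RNA libraries held 14803 to 18328 loci, and read depth is not given in the sources used here. Implied fragments, 4 times the squared ratio of FPKM to half-width (a half-width taken as 2 SD), summed to 3813235 to 5854126 per pulldown library and 14589704 to 19513879 per RNA-seq library. They cover counting error only.

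The 10 genes, the lists and the thresholds were chosen with earlier results of these data known, and the 5000 bp limit, the span limit and the RNA-seq limit of 100 FPKM after the values were seen. Gene names for RNA-seq loci and for peaks came from 35640 mm9 gene rows that the pulldown files list at 0 FPKM. Pulldown loci have the gene ends of GRCm38 and were named through a GRCm38.p6 RefSeq table. A locus was matched to a gene by mutual best overlap, with at least 0.5 of the joint length shared. The comparison took protein-coding genes matched in all 3 libraries whose FPKM averaged 1 or more. Implied fragments of at least 3 were compared with 10 added. A gene was counted under a mark where a peak overlapped it by at least 1 bp. Named beside the 10 genes were the 2 genes per list and assay with the largest ratio over scr (of which some are printed) and the 5 nearest genes. Marker genes and Krt18 were named after their values were seen. With 1 library per group no test was run. Other settings were a pseudocount of 0.1, overlaps of 0.9, of 1 bp or summed over loci, rescaled or unscaled libraries, no FPKM minimum, loci within 10% in span, and peaks scoring at least 100 or overlapping by at least 500 bp. The procedure was tested on simulated data, whose loci had the coordinates of the genes and whose bounds came from counting error alone. Matching of split or fused loci and the real interval widths were therefore not tested by it. Python 3.11.15, pandas 2.3.3, numpy 2.4.6 and matplotlib 3.10.9 were used. The 2 input samples were not analysed here.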

Additional observations from a re-analysis of the deposited data

How the results depend on the processing

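Every median by FPKM kept its direction under the settings tried, whereas medians by implied fragments, which lie near 0, changed sign under some. The cause of the moves below was not tested, beyond fewer genes matched under the 0.9 overlap and the span limit. In the pulldown, 7 of 10 genes at least 2-fold below scr (33.5% of all genes) became 4 of 7 with loci within 10% in span (32.5% of 3820 genes). With an overlap of at least 0.9 the count was 3 of 6, and the share of all genes was not counted there. The pulldown median over scr was -1.24 with the 0.9 overlap and -1.23 after rescaling each library, against -1.75. Over mutant it was -0.50, -0.19 and, with the span limit, -0.46, and for mutant over scr -0.82 with the 0.9 overlap and -1.35 with the span limit. In RNA-seq, only Actb and Tpm1 were still compared with the 0.9 overlap or the span limit. Of these 2 genes, 0 lay at least 2-fold below scr, as Pfn1 was no longer compared. Their median over scr was 0.41, against 0.22 over 7 genes with any best overlap and 0.24 over 8 genes with summed loci. Over mutant these 4 settings gave 0.18, 0.18, 0.09 and 0.13, and summed loci gave 0.02 for mutant over scr. By implied fragments, unscaled libraries gave -0.28 over mutant and 0.37 for mutant over scr in RNA-seq, and -0.56, -0.52 and -0.08 in the pulldown. Summed loci gave 0.00, 0.25 and -0.36 in RNA-seq, and 0.18 and -0.08 over mutant and for mutant over scr in the pulldown. Counts of genes with a peak did not change.

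Each value rests on 1 library, so no replicate error is given. The files do not show how reads shared between tubulin or actin copies were split. Pulldown and RNA-seq loci were matched on different builds. Implied fragments did not follow level for abundant loci, so they give no depth for these genes. No paired analysis was possible because each group had 1 library and no test was run.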

Other observations

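Of the 768 genes at 50 FPKM or more in all 3 pulldown libraries, Tuba1c alone had no RNA-seq locus in mutant and scr in the tables used here, and its level outside them was not analysed here. It stood at 81.7, 101 and 259 FPKM in the miR-93-5p, mutant and scr pulldown libraries and had H3K4me3 peaks of 5999 bp in miR-93-5p and 6014 bp in scr over its 5′ end. Its neighbours Tuba1a and Tuba1b, in contrast, had RNA-seq loci at 205 and 597 FPKM in mutant and 314 and 662 FPKM in scr. How reads shared among the 3 genes were assigned in the 2 assays was not analysed here.

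The half-width of the deposited interval was under 2% for 8 of 22 RNA-seq values of the cytoskeleton genes and for 0 of 30 pulldown values. Of all loci at 400 FPKM or more, 34.8% to 37.6% per RNA-seq library and 3.11% to 7.17% per pulldown library were under 2%. The gene values were taken at all levels, down to 205 FPKM in RNA-seq and 28.8 FPKM in the pulldown, so the sets differ in level.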
